A study of Glycine max with 2 samples.

Results

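SCOF-1 and SRC2 are soybean genes named for their induction in the cold. Their transcripts were followed here in seedlings given salt. All soybean probe sets whose only gene symbol in the platform's annotation is SCOF-1 or SRC2 were taken, which gave 4 of 37593 soybean probe sets, 3 for SCOF-1 and 1 for SRC2, or 2 of 6031 genes with a probe set of their own. No probe set assigned to several genes named either symbol. Both genes were selected on their log2 ratios of salinity over mock signal in these arrays, so those ratios are a description and carry no test.

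The array study compared soybean (Glycine max) seedlings of cultivar Williams 82, aged 14 days, under 2 conditions. One group received 150 mM NaCl, and the mock group received water alone. RNA taken at 1, 3, 6, 12 and 24 h was pooled within each group, and the design text also lists 0 h for both. Each pool went onto 1 Affymetrix Soybean Genome Array, so no replicate measures the spread between plants or arrays, and no time course can be recovered. The organs taken are not named in the labels. All 5 genes found for green tissue (light harvesting, photosystem and Rubisco activase) were above background on both arrays. So were 32113 of the 37593 soybean probe sets, so this tells little of the organs taken. The 5 genes had log2 ratios by their brightest probe sets from -0.62 (RCA14) to -0.22 (RCA11). Over all 15 measured sets of these genes the ratios ran from -1.03 (PSAD) to 0.26 (CAB3). A further PSAD set was below background on both arrays. The part of the green tissue genes in the results below was not tested. In a pooled bulk extract, fewer cells of a type and less RNA per cell cannot be told apart.

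SCOF-1 encodes a nuclear zinc finger protein of the C2H2 class, a class in which cysteine and histidine residues hold a zinc ion and the finger contacts DNA or another protein. The soybean protein is known to work with a bZIP factor, SGBF-1, which binds abscisic acid response elements, and its transcript is known to rise in the cold and with abscisic acid. SRC2 takes its name from soybean genes regulated by cold and encodes a protein with a C2 domain, a fold that in many proteins binds calcium and membrane lipids. Its relative in Arabidopsis is known to act with a respiratory burst oxidase, an enzyme that makes reactive oxygen at the plasma membrane.

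Both genes gave lower signals on the salinity array than on the mock array, by about the same factor. Values are log2 signals made with MAS5, which turns the probes of a set into 1 number. The background bound was the 95th percentile of probe sets for other organisms on the array, at log2 4.88 (salinity) and 4.94 (mock). All 4 probe sets lay far above it on both arrays.

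For SCOF-1, probe set Gma.235.1.S1_at had log2 signals of 10.15 (salinity) and 12.26 (mock). In unlogged units this is 1138 against 4916, so the salinity signal was 23.1% of the mock signal, a log2 ratio of -2.11 or 4.32-fold lower. Probe set Gma.235.1.S1_x_at had log2 signals of 9.97 (salinity) and 12.07 (mock), a log2 ratio of -2.09 or 4.27-fold lower. The salinity array was thus the low one for both sets, which target the same reference sequence and may share probes, so they are not separate measurements. Probe set Gma.235.2.S1_a_at, from a second sequence of the same transcript cluster, had log2 signals of 9.24 (salinity) and 11.49 (mock). Its log2 ratio was -2.25, or 4.76-fold lower, and is the lowest of the 3. The suffixes _x_at and _a_at mark sets whose probes may also match other transcripts, for _a_at those of the same gene. Gma.235.1.S1_at is the only unmarked one.

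For SRC2, the single probe set Gma.11071.1.S1_at had log2 signals of 9.53 (salinity) and 11.48 (mock). Unlogged, the signals were 738 and 2852, so salinity stood at 25.9% of mock, a log2 ratio of -1.95 or 3.87-fold lower. This set carries no cross-hybridisation mark. It has no second set against which its ratio could be checked, as was the case for 70.3% of the 6031 genes.

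**Figure D1:**
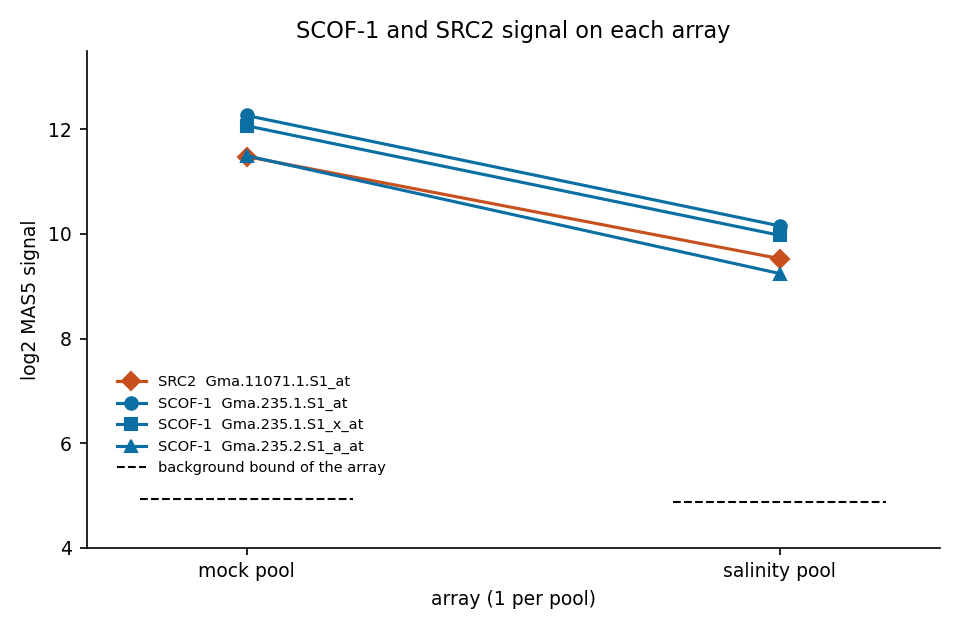
Log2 MAS5 signal (vertical axis) of each SCOF-1 (blue) and SRC2 (orange) probe set on the mock and the salinity array, 1 array per pool, with the background bound of each array dashed. Every line falls from mock to salinity, from between 11.48 and 12.26 to between 9.24 and 10.15, and all points stay well above the bounds near 4.9.

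All 4 probe sets were at least 2-fold lower on the salinity array. Among all 33784 soybean probe sets above the bound on at least 1 array, 1811 (5.36%) were at least 2-fold lower and 1462 (4.33%) at least 2-fold higher. Since the same contrast chose the genes, nothing is read from the 4 of 4 against this background. For the 32113 soybean probe sets that passed the bound on both arrays, the median log2 ratio was -0.0029, and the SD of the ratios 0.634. Both arrays had been scaled by MAS5 to nearly the same trimmed mean, so the level median is largely set by that scaling.

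By size of the difference, which was also the basis of their choice, both genes were in the lowest 1% of the array. A log2 ratio as low as that of SCOF-1 (Gma.235.1.S1_at) or lower was found for 169 soybean probe sets, 0.5% of those measured. For Gma.235.1.S1_x_at the number was 176, and for Gma.235.2.S1_a_at 128. For SRC2 it was 236, or 0.699%, with all SCOF-1 sets included. Counted as genes by their brightest probe set, 27 of 5892 were as low as SCOF-1 or lower, itself included. For SRC2 there were 40, itself and SCOF-1 included.

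Dim probe sets scatter more than bright ones, so the ratios were also set beside probe sets of like brightness, those within 0.5 log2 units of the same mean signal. Around SCOF-1 (Gma.235.1.S1_at) there were 3203 such sets with an SD of the log2 ratio of 0.588. Of these, 12 were as low as SCOF-1 or lower, itself included, and 24 were as far above 0. Around SRC2 there were 4575, with an SD of 0.597, of which 29, itself and the SCOF-1 set Gma.235.2.S1_a_at included, were as low and 41 as far above 0. At this brightness, then, differences of the same size in the opposite direction were no rarer.

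**Figure D2:**
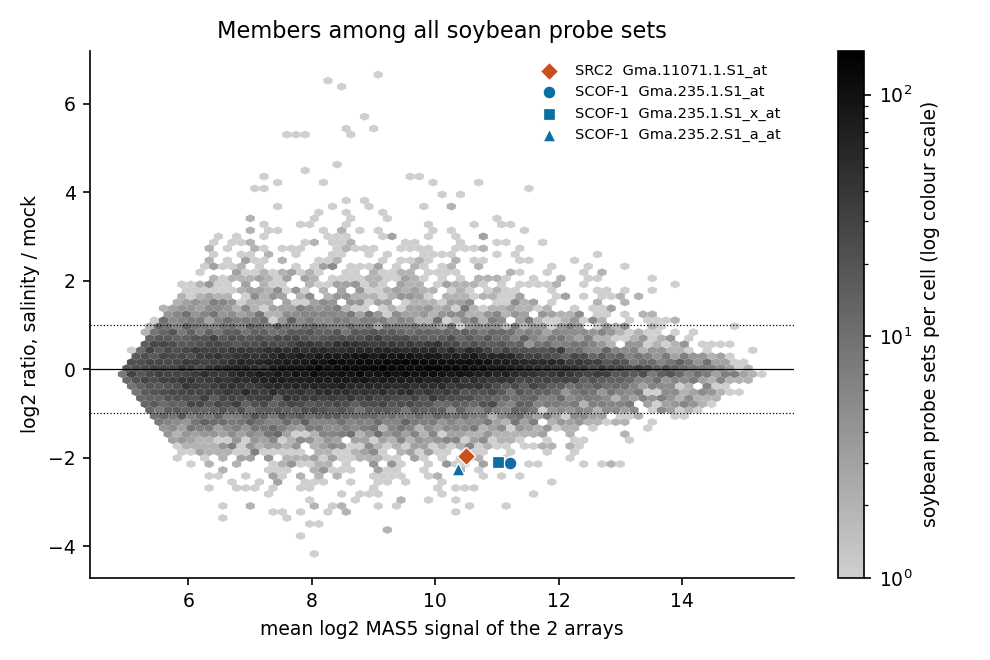
Log2 ratio of salinity over mock (vertical axis) against the mean log2 MAS5 signal of the 2 arrays, with the 32113 soybean probe sets that passed the bound on both arrays as grey cells (darker cells hold more sets, log colour scale) and the SCOF-1 and SRC2 sets as coloured points. The 4 coloured points lie between -2.25 and -1.95, below the dotted 2-fold line at -1 and at the lower edge of the cloud.

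The log2 ratios of the 3 SCOF-1 probe sets ran from -2.25 to -2.09, although their signals spread over 0.91 log2 units (salinity) and 0.77 (mock). Between the 2 sequences they represent, Gma.235.1.S1_at and Gma.235.2.S1_a_at, the ratio differed by 0.14. This covers probe effects only, and neither plants nor arrays. The brightest sets of SRC2 and SCOF-1 differed by 0.16 in log2 ratio, less than the SD of 0.295 found between probe sets of the same gene over 1618 genes. The 2 genes could therefore not be placed in order by the size of their difference.

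Scaling moved the ratios little. Over quantile normalization, loess, median centring and log2(signal + 16), Gma.235.1.S1_at ranged from -2.12 to -2.10 and Gma.235.2.S1_a_at from -2.26 to -2.22. SRC2 ranged from -1.96 to -1.93. A change of the background bound could not move these values, since all 4 sets lie far above it. None of these settings can stand in for a second pool of plants.

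**Figure D3:**
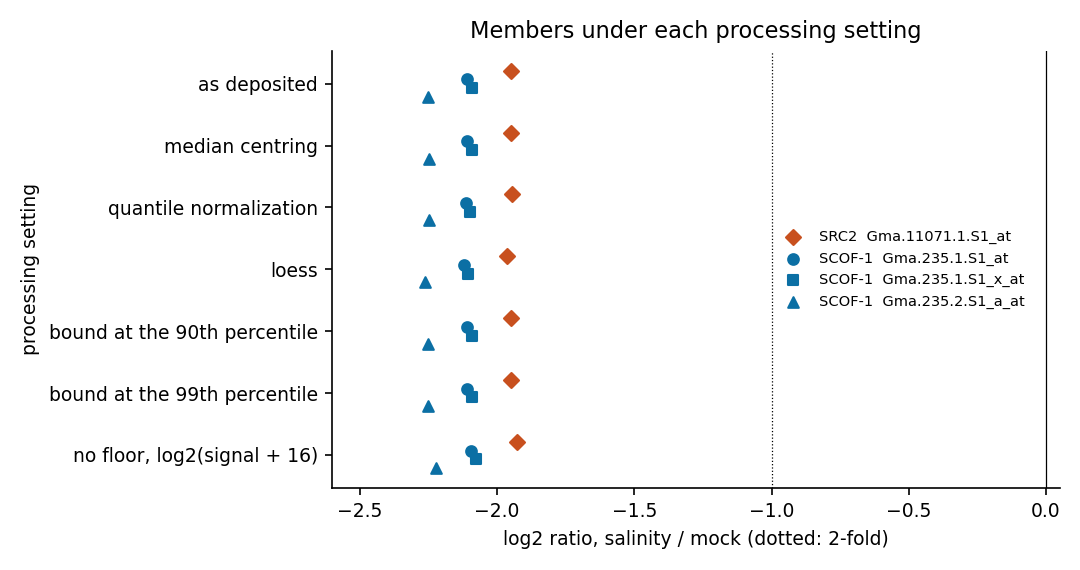
Log2 ratio of salinity over mock (horizontal axis) of each SCOF-1 (blue) and SRC2 (orange) probe set under the deposited scale and 6 other settings (vertical axis). The points of a set form a near-vertical column, all between -2.26 and -1.93 and far from the dotted 2-fold line at -1.

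Other genes of the cold response were taken by symbol or synonym. In Arabidopsis, ICE proteins are bHLH factors that switch on CBF genes in the cold. CBF factors, also called DREB1, belong to the AP2/ERF class and bind the dehydration-responsive element of cold and drought genes. Beside SCOF-1 and SRC2 the list held 15 genes, all measured on both arrays, and these went both ways. At least 2-fold lower were 2 of 15 and at least 2-fold higher 3 of 15, against 5.67% and 5.02% of all 5892 measured genes. The other 10 lay within 2-fold, and the median log2 ratio of the 15 was 0.19, against -0.0033 for all genes.

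The 3 genes at least 2-fold higher on the salinity array were DREB factors. DREB1-like, which carries CBF among its synonyms, had a log2 signal of 8.85 (salinity) and 5.72 (mock), 8.77-fold higher, with a mock signal close to the bound. DREB2A2 had 8.58 (salinity) and 7.40 (mock), 2.27-fold higher. DREB5 had 6.86 (salinity) and 5.71 (mock), 2.22-fold higher, and fell under 2-fold with log2(signal + 16), at a log2 ratio of 0.95. These 3 genes thus differed in the opposite direction to SCOF-1 and SRC2. The remaining DREB genes lay within 2-fold, with log2 ratios of 0.55 (DREB1), 0.03 (DREB) and -0.24 (DREB3). LOC732579, which has DREB2 as a synonym, was at 0.22 by its brightest set and 1.02 by its other set.

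Of the 4 ICE genes, 1 was at least 2-fold lower. ICE3 had a log2 signal of 6.48 (salinity) and 7.77 (mock), 2.46-fold lower, the next lowest gene of the list after SCOF-1 and SRC2. The log2 ratio was -0.65 for LOC100804797, with synonyms ICE5 and ICE6, and -1.21 by its other set. It was -0.30 for ICE4, with another set, which passed the bound in the mock pool only, at -0.89 or lower. ICE2 was at -0.07, with its other sets at -0.38 and 0.21, so its sets pointed both ways. COR2 had log2 signals of 9.62 (salinity) and 10.67 (mock), 2.06-fold lower, whereas COR1 was at 0.53 with its 3 sets from 0.21 to 0.62. Both COR genes are on the list by symbol alone, and their roles were not annotated. ERD15, a dehydration-response gene, was at 0.19 and 0.12.

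SRC1, the other soybean gene on the list with the SRC name, gave opposite values by its 2 probe sets. The brighter, Gma.2540.2.S1_s_at, had log2 signals of 13.41 (salinity) and 12.49 (mock), a log2 ratio of 0.92. The dimmer, GmaAffx.60746.1.A1_at, had 7.04 (salinity) and 8.30 (mock), a log2 ratio of -1.26. The brighter set carries the suffix _s_at, a mark of probes shared between transcripts, and the dimmer set carries no such mark. No direction is therefore given for SRC1. Leaving out all marked sets moved the median of the cold response list from 0.19 to -0.02. Its counts became 3 lower, with SRC1, and 4 higher, with LOC732579, of 14 genes. The left-out set of LOC732579 is an _a_at set.

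**Figure D4:**
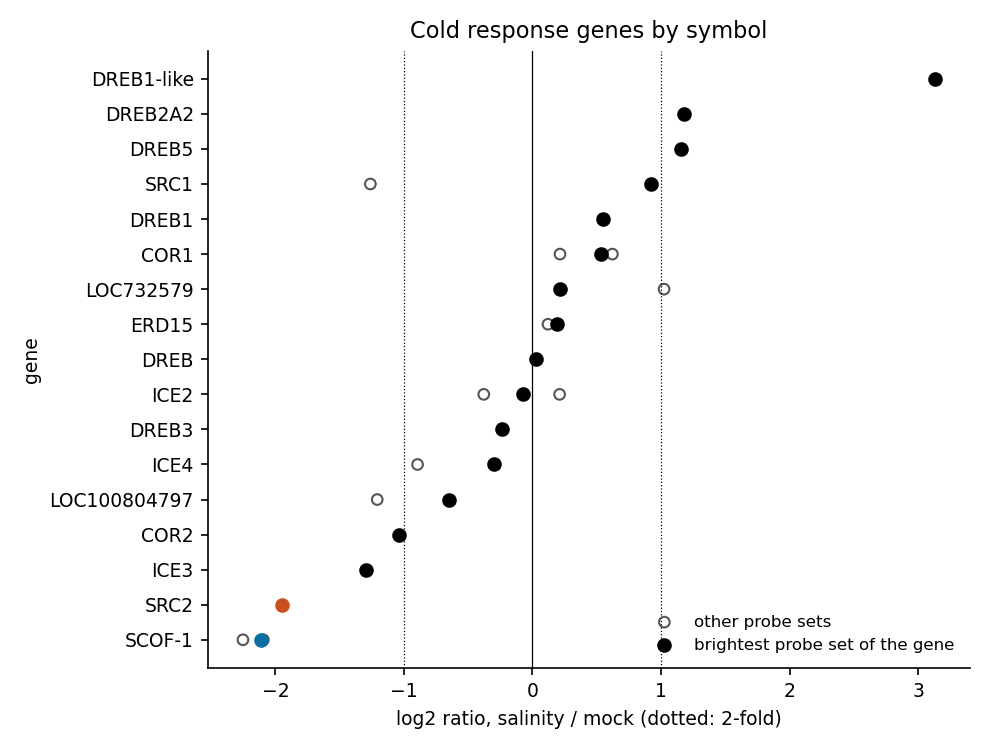
Log2 ratio of salinity over mock (horizontal axis) for the 17 cold response genes found by symbol or synonym (vertical axis), with the brightest probe set of each gene filled (SCOF-1 blue, SRC2 orange) and its other sets open. SCOF-1 (-2.11) and SRC2 (-1.95) are at the low end, DREB1-like (3.13) at the high end, and the open point of SRC1 (-1.26) lies across 0 from its filled point (0.92).

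In a search by symbol for C2H2 zinc finger genes beside SCOF-1, only ZFP1 was found. It had log2 signals of 7.24 (salinity) and 8.61 (mock), 2.59-fold lower, from 1 probe set. The symbol does not give its zinc finger class. A further RefSeq gene, STF-3, has SCOF-1 as a synonym and has no probe set assigned to it alone, so the 3 SCOF-1 sets were not checked against it.

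C2 domain proteins such as SRC2 often act with calcium, so calcium signalling genes were set beside it. Of 10 measured, 2 (SCA1 and ANN11) were at least 2-fold lower and none at least 2-fold higher, against 5.67% and 5.02% of all measured genes. The median log2 ratio of the 10 was 0.01. SCA1 was the lowest, with log2 signals of 11.15 (salinity) and 12.46 (mock), a log2 ratio of -1.31. ANN11 was at -1.15 by its brightest set, which carries the suffix _s_at. Its other sets gave -1.08 and -0.10, the last with signals near the bound. By brightest sets the calmodulin gene SCAM-5 was the highest, at 0.29. The respiratory burst oxidase list found no gene by symbol.

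Dehydrins and related proteins of the late embryogenesis abundant (LEA) class and of seed maturation build up in dry or cold-stressed tissue. Genes of this kind were taken by symbol or synonym alone. Of 30 measured, 17 were at least 2-fold higher and none at least 2-fold lower, against 5.02% and 5.67% of all measured genes. Higher is the direction opposite to SCOF-1 and SRC2. The 17 include PARP3 (3.72-fold higher) and TENA_E (2.13-fold higher), whose symbols do not name an LEA protein. The other 13 lay within 2-fold, and the median log2 ratio of the 30 was 1.64, against -0.0033 for all genes. Of the 30, 21 were above the bound on the mock array, and for the rest the ratio is a lower limit. Among genes above the bound on both arrays PM9 was the highest, with log2 signals of 11.67 (salinity) and 6.32 (mock), a ratio of 5.35. PM30, below the bound in the mock pool by 2 of its 3 sets, was at least 4.50 by its brightest set and at least 5.12 by another, and 0.47 by the third. PM40 was the lowest, with log2 signals of 9.30 (salinity) and 9.70 (mock). PMM entered this list only through the spelling of its synonym and lay at -0.02.

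With 2 arrays, likeness to a gene could only be measured as the distance between its pair of log2 signals and that of another gene, over 957 measured genes, none named by a locus number alone. Signals of different probe sets also depend on the probes, so this is a description of signal pairs. Closest to SCOF-1 were SEOA, a sieve element occlusion gene (distance 0.606), CYP53, a cyclophilin (0.691), GASA11, of the gibberellin-stimulated family (0.718), the auxin-induced AUX22 (0.804) and GASA3 (0.851). Their log2 ratios ran from -1.88 (AUX22) to -0.94 (GASA3), all nearer 0 than that of SCOF-1. The other set of SEOA was below the bound on both arrays and gives no ratio.

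Closest to SRC2 were the aquaporin gene PIP2-1 (distance 0.192), EBP (0.482), the glutamine synthetase gene GS1GAMMA2 (0.490), SOY69 (0.545) and WRKY43 (0.635), of the WRKY transcription factors. PIP2-1 had log2 signals of 9.72 (salinity) and 11.46 (mock), a ratio of -1.74, but its other set gave -0.07. EBP was at -1.44 and -1.59 by its 2 sets, so its sets pointed the same way. GS1GAMMA2, at -2.15 from 1 set, is the only one of the 5 with a lower ratio than SRC2.

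Genes beside SCOF-1 and SRC2 in the RefSeq gene order (assembly Glycine_max_v4.0, used for order and names alone) were mostly without a probe set. Of the 6 genes on each side, 1 of 12 around SCOF-1 had a set, LOC100527002, at a log2 ratio of 0.04 with signals of 5.71 (salinity) and 5.68 (mock). Around SRC2, 2 of 12 had one, LOC100781602 at -0.33 and LOC100527797 at 0.31. None of these 3 neighbours differed 2-fold. Of all 5892 measured genes, 5262 lay within 2-fold as well, so nothing is read from the 3.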

How the data were processed

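Total RNA of pooled seedlings was labelled with biotin and hybridised to 2 arrays, 1 for the salinity pool and 1 for the mock pool, per the labels' protocols. The deposited values are log2 signals that the authors made with MAS5, per the submitters' processing notes, with a version not given in the sources used here. The 2% trimmed mean of unlogged signals came to 498.8 (salinity) and 498.5 (mock), a scaling that MAS5 itself sets. The number of arrays limits the precision.

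Signals under the bound (95th percentile of 23350 probe sets for Phytophthora sojae and soybean cyst nematode) were raised to it. The ratio is log2(salinity / mock), with no further normalization. Symbols came from the platform's annotation, with 8677 single-gene probe sets, updated through the gene identifier to RefSeq, which held 6010 of 6031 genes. The brightest probe set stood for a gene. With 1 array per group no test was possible, and a rule of at least 2-fold was used. The counting code was run on simulated arrays with far less scatter than these and large set differences in bright probe sets. That run checks the code only, not the results.

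The members and lists were chosen with earlier results of these data known. Lists are patterns of symbols and synonyms. Named were both genes, all cold response genes, the highest and lowest of the calcium, LEA and green tissue lists, the zinc finger gene found by symbol and the 5 genes closest to each member. PM22, MP2, PM34, PM27, PM30, PMM, PARP3, TENA_E, ANN11, PSAD, CAB3, STF-3 and the neighbours were named after their values had been seen. So were the seed storage genes above the bound, and the nodule and reference genes at the ends of their ranges. Relatives by protein alignment had been planned and were not analysed here. The neighbours in gene order and the probe sets of like brightness were added after the values had been seen. Python 3.11.15, pandas 2.3.3 and statsmodels 0.14.6 (loess, span 0.3) were used.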

Additional observations from a re-analysis of the deposited data

How the results depend on the processing

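The 8 alternatives included loess, quantile normalization, median centring, log2(signal + 16) without a floor, and the 90th or 99th percentile as the bound. The others were averaging the probe sets of a gene and leaving out marked sets (lettered suffixes such as _a_at, _s_at or _x_at). The log2 ratio stayed between -2.15 and -2.10 for SCOF-1 and between -1.96 and -1.93 for SRC2. By construction, both bounds and leaving out marked sets cannot move either gene, and averaging cannot move SRC2, so these show nothing about stability. Soybean probe sets at least 2-fold lower numbered 1590 to 1924 and those at least 2-fold higher 1195 to 1586. A ratio or median was counted as moved when it shifted by 0.295 or more, the SD between probe sets of a gene, and a count when it changed by over 1.5 times. Of 205 alternative values, 7 moved, though many of the 205 could not move by construction. A bound cannot move a gene that lies above it on both arrays. Leaving out marked sets or averaging cannot move a gene with a single unmarked set. The LEA and dehydrin median was 1.09 with the bound at the 99th percentile, where genes above the bound on 1 array alone have smaller lower limits by construction. The other 6 concern single genes. SRC1 was at -1.26 without marked sets and -0.17 by the mean. LOC732579 was at 1.02 and 0.62 under the same settings, ICE4 at -0.60 by the mean, and DREB1-like at 2.80 with log2(signal + 16). DREB1, whose only set is marked, has no value without marked sets. ZFP1, the zinc finger gene found by symbol beside SCOF-1, stayed between -1.37 and -1.28, and the planned relatives of SRC2 were not run. No paired analysis was possible because each group has 1 array. With 1 array per pool, neither leaving out a replicate nor any measure of the spread between plants was possible.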

Other observations

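Of 13 seed storage genes found by symbol or synonym, 4 passed the bound in the salinity pool and 1 in the mock pool. For all genes, 5892 of 6031 passed on at least 1 array. BG7S-1 was the brightest, at log2 signals of 6.22 (salinity) and 5.66 (mock). GY2, SBP2 and LOC100787186 passed in the salinity pool only, at 5.05, 5.45 and 5.58 against a bound of 4.88. Their mock signals were 4.13, 4.87 and 4.76 against a bound of 4.94. Their log2 ratios, as lower limits, were 0.11, 0.51 and 0.64. All lay near the bound, so nothing is read from the 4 against 1. Of 18 nodule genes, 8 were measured, a smaller share than the 5892 of 6031 for all genes. Their log2 ratios ran from -1.76 (ENOD55-2) to 1.23 (N-36A). Among the nodule genes with an N- symbol only N-36A was measured, by a set with the suffix _s_at. The others with such a symbol were below the bound on both arrays. By their brightest probe sets the 11 measured reference genes lay within 2-fold, as did 5262 of all 5892 measured genes. The reference genes ranged from -0.25 (SUBI-1) to 0.41 (EF1BGAMMA4), with a median of 0.05. Both of these genes had sets of the opposite sign, 0.46 and 0.49 for SUBI-1 and -1.05 for EF1BGAMMA4, the last being over 2-fold lower.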
